A study of Sus scrofa with 12 samples.

Results

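A set of 161 array probes, of 43221 non-control probes measured, was raised when porcine fat-cell precursors differentiated under a control siRNA and was raised less under each of 3 siRNAs against G-protein-coupled receptors. Members were chosen by their values. On the processed signals, the mean log2 ratio of differentiated cells over undifferentiated cells had to be at least 1 with control siRNA and at least 1 lower than that with F2RL2, LGR4 and GPR124 siRNA. The probe also had to lie well above background, a flag of the scanner software, in the differentiated cells on all 3 control arrays. A higher ratio with control siRNA, and a lower one with each targeting siRNA, is therefore how the set was made and is given as description, without a test. The choice did not use the differences among the 3 targeting siRNAs directly, and these were tested. It did hold the level with each siRNA at least 1 below control, which limits how high any of them can lie. Counts and directions of these differences over the members are thus not free of the choice.

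Preadipocytes turn into adipocytes when insulin, a glucocorticoid and lipid precursors start a cascade of transcription factors that ends in genes for lipid uptake and storage. Transcripts that rise on the way include early targets of the hormone mixture as well as late genes of the mature fat cell. Among the targets, GPR124 is an adhesion receptor that serves as a Wnt co-factor, and LGR4 binds R-spondins, proteins that strengthen Wnt signals. F2RL2 belongs to the protease-activated receptors. Wnt signalling is known as a brake on adipocyte formation.

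The cells were preadipocytes of female pig subcutaneous tissue. Each of the 4 groups, control siRNA (a commercial non-targeting siRNA), F2RL2 siRNA, LGR4 siRNA and GPR124 siRNA, had 3 arrays of 2 colours. Cells carrying the siRNA had been differentiated for 4 days in medium with 4.5 g/L glucose, 10% serum, 0.25 µM dexamethasone, 5 µg/mL insulin, 33 µM biotin, 17 µM pantothenate and 5 mM octanoate, and were labelled with Cy3. The growth medium held 1 g/L glucose. All arrays shared one reference in Cy5, preadipocytes at day 0 without transfection. Differentiation with its change of medium and glucose, transfection and dye therefore cannot be told apart in a ratio over the reference. One label field spells the first target R2RL2; the titles, which give F2RL2, were followed. The labels give neither the number of animals nor the cultures the replicates came from, so every p here rests on the spread between arrays, which may be technical.

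The files used here give probe identifiers without genes, and none of the identifiers matched the gene tables. The targeted transcripts, the marker genes of preadipocytes, adipocytes and other cell types, and the pathway lists were therefore not analysed here. Different members may be probes of one transcript, so they are not independent. The control arrays all lay on slide 1 with F2RL2 siRNA replicate 1. Slide 2 held F2RL2 siRNA replicates 2 and 3 with LGR4 siRNA replicates 1 and 2. Slide 3 held LGR4 siRNA replicate 3 and all GPR124 siRNA arrays. No slide was shared by control and GPR124 siRNA, control and LGR4 siRNA, or F2RL2 and GPR124 siRNA. Slide and siRNA therefore cannot be told apart within these pairs, except indirectly through groups that share slides with others. Over all probes, 24720 to 29381 lay well above background in Cy3 per array. In Cy5 the number was 23594 to 26485 on the GPR124 arrays and 27003 to 32394 on the others.

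Of the 2639 probes with a control ratio of at least 1 (6.11% of all probes), 1863 lay well above background on the 3 control arrays. Among these, 327 were at least 1 below control with F2RL2 siRNA, 405 with LGR4 siRNA and 575 with GPR124 siRNA. The corresponding shares over all probes were 2.57%, 2.26% and 5.15%. The 161 members met all 3 conditions and made up 8.64% of the 1863 induced probes. The 3 comparisons use the same control arrays. Nearest inside the thresholds was a member with a processed control ratio of 1.001 and differences of -1.11, -2.30 and -1.18 for F2RL2, LGR4 and GPR124 siRNA. Nearest outside was a probe with a control ratio of 1.88 and differences of -1.57, -0.9997 and -2.07.

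Summed over the set, the blunting was deepest with GPR124 siRNA and least deep with LGR4 siRNA. All values from here on are log2 ratios over the reference after background correction and loess normalization, unless called processed. The members' median level per array was 1.44, 1.56 and 1.84 on control arrays 1 to 3. It was 0.21, 0.22 and 0.28 with F2RL2 siRNA, 0.21, 0.35 and 0.33 with LGR4 siRNA, and 0.065, 0.13 and 0.055 with GPR124 siRNA. Every targeting array thus had its median below all control arrays. The F2RL2 and LGR4 arrays overlapped, and the GPR124 arrays lay below both. By the mean over members, F2RL2 siRNA arrays kept 18.1% ± 1.7 of the control log2 ratio, LGR4 arrays 31.4% ± 6.6 and GPR124 arrays 5.0% ± 3.0 (SD, n = 3 each). With the processed signals, to which no offset was added, the shares were 29.7% ± 3.7, 36.0% ± 5.7 and 8.81% ± 5.1. Dim members could read nearly alike on an array on that scale. The members ranked 73 and 149 by control ratio, well above background on 0 GPR124 arrays, read -0.14 and -0.13 on GPR124 replicate 1. They read -0.78 and -0.71 on replicate 2, and -0.37 and -0.36 on replicate 3. The arrays of the 3 groups did not overlap in this share on the loess scale. On the processed scale the F2RL2 arrays (26.5% to 33.7%) and LGR4 arrays (30.2% to 41.6%) overlapped, and the GPR124 arrays lay below both. In whole-culture RNA, fewer cells expressing a transcript and less of it per cell cannot be told apart.

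Members differed widely in how strongly they were induced, and more of the induction remained in strongly induced members with LGR4 siRNA than with GPR124 siRNA. Control means ran from 0.27 to 4.85 with a median of 1.62. Means under F2RL2 siRNA ran from -1.10 to 4.10 (median 0.23), under LGR4 siRNA from -0.63 to 3.59 (median 0.26) and under GPR124 siRNA from -1.36 to 2.19 (median 0.069). In the 21 members with a control mean of 3 or more, the medians were 3.69 in control, 0.91 with F2RL2 siRNA, 1.87 with LGR4 siRNA and 0.22 with GPR124 siRNA. In the 58 members between 1 and 2, they were 1.48, 0.093, 0.21 and 0.012. The siRNA groups lay closer together there, but the drop required of every member leaves less room above the reference where induction is modest. The 39 members between 2 and 3 had medians of 2.56, 0.61, 0.92 and 0.11, and the 43 below 1 had 0.67, 0.082, 0.077 and 0.081. Differences from control had medians of -1.36 (F2RL2), -1.19 (LGR4) and -1.60 (GPR124). On this scale 118 members reached 1 in control, as 3.62% of all tested probes did. A difference of at least 1 below control was kept by 108 members with F2RL2 siRNA (1% of all tested probes), 100 with LGR4 siRNA (0.856%) and 113 with GPR124 siRNA (2.69%), and by 90 with all 3 (0.352%). The offset in the background correction compresses dim spots. All 3 arrays lay below all 3 control arrays in 160 members for F2RL2, 158 for LGR4 and 154 for GPR124 siRNA, where the shares over all tested probes were 17%, 18.8% and 21.8%. The choice of members fixes this direction.

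Many members read near or below the level of undifferentiated cells with a targeting siRNA. A mean log2 ratio below 0 was seen in 41 members with F2RL2 siRNA, 28 with LGR4 siRNA and 64 with GPR124 siRNA, and in 0 with control siRNA. These counts include members not well above background, whose ratios the offset compresses. The share of all probes below 0 was not counted here, for these counts or for the measured members below. Loess normalization centres the ratios of each array near 0, so ratios below 0 are common among all probes. The counts are therefore not an excess shown for the members. Of the 92 members whose reference signal lay well above background on all 3 control arrays, 28, 12 and 32 were below 0 under F2RL2, LGR4 and GPR124 siRNA while measured well above background on all 3 arrays of that group. Of the members measured on all 12 arrays, the one lowest with both F2RL2 and GPR124 siRNA had a control mean of 1.54 ± 0.38 (values 1.41, 1.24 and 1.96). It read -1.13, -0.99 and -1.17 with F2RL2 siRNA and -1.39, -1.29 and -1.40 with GPR124 siRNA, but 0.081, 0.53 and 0.80 with LGR4 siRNA. It thus lay above the reference with LGR4 siRNA and below it with the other siRNAs. Its LGR4 level exceeded those with F2RL2 siRNA (log2 difference 1.57, SE 0.19, limma adjusted p = 0.000131) and GPR124 siRNA (1.83, SE 0.19, adjusted p = 8.91e-06). F2RL2 and GPR124 siRNA did not pass against each other (0.26, SE 0.19, adjusted p = 0.284).

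Part of the set lay near the detection limit outside differentiated control cells. The reference lay well above background on none of the 3 control arrays for 52 members (32.3%), on all 3 for 92 (57.1%) and on 1 or 2 for 17. The share with no reference array above background was 4.64% among the 1702 other induced probes. In Cy3, 39 members (24.2%) were not well above background on any F2RL2 array, 48 (29.8%) on any LGR4 array and 44 (27.3%) on any GPR124 array, against 1.06%, 2.88% and 6.23% of the other induced probes; a low signal with these siRNAs is also what the choice of members favours. There were 22 members not well above background on any of the 9 targeting arrays and 58 well above it on all 9. Of those 58, the reference was measured on all 3 control arrays for 56. On the GPR124 arrays the number of members well above background was 63, 110 and 73 for replicates 1 to 3, against 103 to 117 with F2RL2 siRNA and 89 to 107 with LGR4 siRNA. It moved with the number over all probes on those arrays (24720, 29243 and 25697), and the part of array sensitivity in these counts was not tested.

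Where no array of a group showed a probe well above background, the fold is given as a bound. It sets the mean Cy3 signal with control siRNA against, per array, the lowest signal among probes well above background or the probe's own signal if that was higher. With F2RL2 siRNA, the 39 such members were at least 1.11-fold to 3.45-fold lower than with control siRNA (median bound 1.59). The 48 with LGR4 siRNA were at least 1.05-fold to 12.1-fold lower (median 1.42). With GPR124 siRNA, 41 of 44 had a bound over 1, from 1.01-fold to 25.9-fold (median 1.70). Most of these bounds were small, as their medians show. Likewise the 52 members with an unmeasured reference were at least 1.21-fold to 21.8-fold higher in control cells than in the reference (median 1.93). The largest bound was that of the member ranked 4 by control ratio.

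Among the 3 targeting siRNAs, 84 of 161 members differed by the limma F test (52.2%), a share near the 45.3% of all 32346 tested probes. The other induced probes, of which 72.4% differed, were set apart by the same differences from control that chose the members, so their shares are given as description. Between F2RL2 and LGR4 siRNA, 58 members were called, 15 higher with F2RL2 siRNA and 43 higher with LGR4 siRNA. That is 36.0% of the members, against 13.9% of all probes (5.55% and 8.38% in these directions). Among the other induced probes, 37.3% were called, 379 higher with F2RL2 siRNA and 256 higher with LGR4 siRNA, a lean opposite to that of the members. With slide as a block, 35 members were called, 7 and 28 in these directions (8.08% of all probes). On slide 2 alone, with 2 arrays of each group, 15 were called, 2 and 13 (3.46% of all probes).

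Where GPR124 siRNA differed from another siRNA, most called members were lower with GPR124 siRNA. Between F2RL2 and GPR124 siRNA, 50 members were called (31.1%, against 41.4% of all probes), 39 higher with F2RL2 and 11 higher with GPR124 siRNA, where 19.3% and 22.1% of all probes were called in these directions. Between LGR4 and GPR124 siRNA, 73 were called (45.3%, against 37.5% of all probes), 55 higher with LGR4 and 18 higher with GPR124 siRNA, where 18.9% and 18.6% of all probes were. The share for F2RL2 against GPR124 siRNA thus lay below that of all probes. Among the other induced probes, 62.1% and 58.2% were called, with the same lean. Of these, 850 were higher with F2RL2 and 207 with GPR124 siRNA, and 763 were higher with LGR4 and 228 with GPR124 siRNA. The lean was thus not particular to the members. With the processed signals the members' F2RL2 split was 48 to 6 (44.8% of all probes called). For LGR4 against GPR124 siRNA it was 51 to 7 with median centring (22.8%) and 56 to 8 with Cy3 alone (31.6%). A slide block reduced the F2RL2 and GPR124 calls to 28 members (26 and 2, with 16.4% of all probes called). These groups shared no slide, so the block links them only through the LGR4 arrays. For LGR4 against GPR124 siRNA the slide block gave 61 (51 and 10, with 23.9% of all probes called). On slide 3 alone, where the single LGR4 array is assumed to vary like the GPR124 arrays, 57 members were called, 50 of them higher with LGR4 siRNA (11.5% of all probes).

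Counts that required the higher group to be well above background on all 3 arrays kept the same majorities. They were 14 and 43 for F2RL2 against LGR4 siRNA, where 5.46% and 7.99% of all probes were called in these directions. For F2RL2 against GPR124 siRNA they were 35 and 4 (18.6% and 19.8% of all probes), and for LGR4 against GPR124 siRNA 53 and 4 (17.7% and 16.8%). Most of the calls with GPR124 siRNA on the higher side, 7 of 11 and 14 of 18, were of members not well above background on all 3 GPR124 arrays. In the 58 members measured on all 12 arrays, median levels were 2.15 with control siRNA, 0.26 with F2RL2 siRNA, 0.88 with LGR4 siRNA and -0.044 with GPR124 siRNA. In a fit on the probes well above background in Cy3 on all 12 arrays, 29 of these 58 were higher with LGR4 and 9 with F2RL2 siRNA (19.3% of the probes in that fit called). Between F2RL2 and GPR124 siRNA 20 were higher with F2RL2 and 4 with GPR124 siRNA, a total below the 51.8% of all probes in that fit. Between LGR4 and GPR124 siRNA 32 were higher with LGR4 and 3 with GPR124 siRNA (48.2%). At a difference of at least 1, 28 of the 161 members were called higher with LGR4 than with F2RL2 siRNA and 1 the other way, where 0.742% and 0.349% of all probes were. For F2RL2 against GPR124 siRNA the counts were 15 and 0 (2.75% and 1.98%), and for LGR4 against GPR124 siRNA 37 and 0 (2.62% and 0.986%). Among the 1702 other induced probes, 61 were called higher by at least 1 with LGR4 and 73 with F2RL2 siRNA. For F2RL2 against GPR124 siRNA their counts were 289 and 47, and for LGR4 against GPR124 siRNA 239 and 53.

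The order LGR4, then F2RL2, then GPR124 siRNA, from highest to lowest mean, was found in 52 members. Both neighbours in that order were called apart in 15, where 1.41% of all probes were. The order F2RL2, LGR4, GPR124 had 23 members, with both neighbours called in 2 (1.64% of all probes), and the order LGR4, GPR124, F2RL2 had 16, with both called in 1 (0.408%). The other 3 orders held 70 members and had both neighbours called in 0 of them (1.75%, 0.213% and 0.609% of all probes). For most members, then, at least one pair of neighbouring siRNAs did not differ beyond the spread of arrays.

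Probes AGPOA3-24173 and AGPOA3-28783 had the smallest adjusted p among the 3 siRNAs and show the graded order. AGPOA3-24173 stood at 2.95, 2.94 and 3.18 on the control arrays. It was at 0.78, 0.79 and 0.92 with F2RL2 siRNA, at 2.05, 1.82 and 1.77 with LGR4 siRNA, and at -0.35, -0.35 and -0.77 with GPR124 siRNA. No groups overlapped: it lay 2.21-fold below control with LGR4 siRNA, 4.57-fold with F2RL2 siRNA and 11.4-fold with GPR124 siRNA, the last under the level of undifferentiated cells. It was higher with LGR4 than with F2RL2 siRNA by 1.05 (SE 0.12, limma adjusted p = 0.00011) and higher with F2RL2 than with GPR124 siRNA by 1.32 (SE 0.12, adjusted p = 3.27e-06). AGPOA3-28783 had means of 3.09 ± 0.14, 0.86 ± 0.053, 1.87 ± 0.21 and -0.40 ± 0.19 in control, F2RL2, LGR4 and GPR124 siRNA (SD, n = 3). On the 12 arrays it differed from AGPOA3-24173 by 0.0042 to 0.16. The 2 probes followed each other closely; whether they detect one transcript was not analysed here.

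Probes AGPOA3-02926 and AGPOA3-01048 had the largest drop shared by all 3 siRNAs. AGPOA3-02926 was at 3.50, 3.81 and 4.11 on the control arrays, a 14.0-fold induction. With F2RL2 siRNA it read 0.23, 0.39 and 0.63 and lay well above background on 2 of 3 arrays. With LGR4 siRNA (0.22, 0.15 and 0.12) and GPR124 siRNA (0.26, 0.082 and 0.34) it lay well above background on none. Its Cy3 signal was at least 12.1-fold lower than with control siRNA in the LGR4 group and at least 11.1-fold lower in the GPR124 group. These levels cannot be ordered. On the processed scale, which the offset does not compress, it read 1.20, 0.95 and 2.65 with F2RL2 siRNA, 1.10, 0.89 and 0.99 with LGR4 siRNA, and -0.14, -0.18 and 0.0019 with GPR124 siRNA, against 5.39, 5.85 and 5.63 with control siRNA. Where the probe was not well above background, these values cannot be ordered either. AGPOA3-01048 was at 2.78 ± 0.25 in control and 0.34 ± 0.21, 0.13 ± 0.065 and 0.040 ± 0.075 with F2RL2, LGR4 and GPR124 siRNA (SD, n = 3), well above background on 3, 0 and 1 arrays. Its Cy3 signal by itself, the scale of the bounds and not that of the ratio, was at least 9.30-fold lower with LGR4 siRNA than with control siRNA, whereas the ratios differed by 6.27-fold. Its F2RL2 level did not pass against GPR124 siRNA (0.31, SE 0.12, limma adjusted p = 0.0692), and with the processed signals that difference was 0.99 (adjusted p = 0.139). On the loess scale the difference passed only without control siRNA replicate 3 (0.31, adjusted p = 0.0307) and without F2RL2 siRNA replicate 1 (0.41, adjusted p = 0.0255). It did not pass in the other 16 settings run, such as without F2RL2 siRNA replicate 3 (0.20, adjusted p = 0.262).

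The most strongly induced members kept part of their induction under some siRNAs. The member ranked 1 by control ratio read 4.76, 4.57 and 5.22 on the control arrays. It lay at 3.38 ± 0.51 with LGR4 siRNA, 1.77 ± 0.14 with F2RL2 siRNA and 0.54 ± 0.27 with GPR124 siRNA, each pair of neighbours called (limma adjusted p = 0.000584 and 0.000998). The member ranked 2 was at 4.79 ± 0.11 in control, 3.09 ± 0.49 with F2RL2 and 3.59 ± 0.24 with LGR4 siRNA, a pair that did not pass (adjusted p = 0.143). With GPR124 siRNA it was at 0.78 ± 0.23, 4.96-fold below F2RL2 siRNA (adjusted p = 2.57e-06) and 7.02-fold below LGR4 siRNA (adjusted p = 6.96e-07). Both members were lowest with GPR124 siRNA.

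The member ranked 4 showed another order. It read 4.25, 4.73 and 4.72 in control, and its reference was not well above background on any control array. It read 3.81, 3.88 and 4.62 with F2RL2 siRNA, 2.21, 1.73 and 1.18 with LGR4 siRNA, and 1.98, 2.32 and 1.11 with GPR124 siRNA. Its F2RL2 level was 5.27-fold above LGR4 siRNA (limma adjusted p = 0.000357) and 4.93-fold above GPR124 siRNA (adjusted p = 0.000101), while LGR4 and GPR124 siRNA did not pass against each other (adjusted p = 0.851). Its mean difference from control with F2RL2 siRNA was -0.46 on this scale, and its F2RL2 and control values overlapped.

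A further member measured on all 12 arrays, ranked 11 by control ratio, was the highest with GPR124 siRNA. It was at 3.69 ± 0.082 in control, 2.36 ± 0.13 with F2RL2 siRNA, 1.60 ± 0.14 with LGR4 siRNA and 2.19 ± 0.10 with GPR124 siRNA. It was lowest with LGR4 siRNA: the F2RL2 level exceeded it by 0.77 (SE 0.095, limma adjusted p = 0.000182), and the LGR4 minus GPR124 difference was -0.59 (SE 0.095, adjusted p = 0.000312). GPR124 and F2RL2 siRNA did not pass against each other (adjusted p = 0.172).

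Members with the widest gaps between siRNAs showed how far the levels could part. The largest excess of LGR4 over F2RL2 siRNA was in the member ranked 33, at 2.56, 2.42 and 3.20 in control. It read 1.27, 1.82 and 1.87 with LGR4 siRNA, -0.49, -0.16 and -0.38 with F2RL2 siRNA, and -1.18, -1.20 and -1.43 with GPR124 siRNA. No arrays of these groups overlapped, and it was 3.98-fold higher with LGR4 than with F2RL2 siRNA (limma adjusted p = 4.04e-05). The member ranked 8 had the largest gap between LGR4 and GPR124 siRNA among those measured on all 12 arrays. It lay at 3.84 ± 0.081 in control, 2.64 ± 0.67 with LGR4 siRNA, 0.93 ± 0.16 with F2RL2 siRNA and -0.54 ± 0.40 with GPR124 siRNA (SD, n = 3), a 9.06-fold gap (adjusted p = 2.27e-06). Its LGR4 arrays were uneven, with replicate 1 at 1.89 and the others at 2.91 and 3.14.

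Lowest levels with F2RL2 or LGR4 siRNA were seen in other members. The member ranked 84 was the 1 in which LGR4, GPR124 and F2RL2 siRNA followed in this order with both neighbours called. It read 1.57, 1.19 and 1.95 in control and -0.89, -0.91 and -0.85 with F2RL2 siRNA, 0.67 below GPR124 siRNA in its mean (SE 0.21, limma adjusted p = 0.0209). The lowest mean with LGR4 siRNA was in the member ranked 130, at 0.82 ± 0.13 in control and -0.63, -0.66 and -0.59 on the LGR4 arrays. Its levels were -0.044 ± 0.032 with F2RL2 siRNA and -0.26 ± 0.15 with GPR124 siRNA, and both exceeded the LGR4 level (adjusted p = 0.000785 and 0.00529). The members given by rank were picked after their values were seen.

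On slide 1, which held the controls, F2RL2 siRNA replicate 1 lay below the control mean in all 161 members, by 0.29 to 3.61 (median 1.34). That array is part of the mean the members were chosen on, so its direction was fixed by the choice, and the part of the slide in the differences from control was not tested.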

How the data were processed

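Intensities came from Agilent Feature Extraction 9.5.3.1, per the file headers. Of the deposited intensity columns, those used hold median spot and local background signals, not normalized, and the processed signal, which the software background-subtracts, detrends and dye-normalizes. The deposited log10 ratio was read to check its direction (Cy5 over Cy3). The authors' value table equals log2 of processed Cy3 over Cy5 on every array within a tolerance of 1e-06, with array medians from -0.28 to 0.16, so it was not centred.

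The processed signals, median-centred per array, served to choose the members. For levels and tests, median signals were background-corrected (normexp, offset 50), loess-normalized within each array (1417 control spots had weight 0) and expressed as Cy3 over Cy5. Outlier spots were left out on their array, 3 among the members. Over all probes they numbered 335 on LGR4 siRNA replicate 3 and 280, 214 and 154 on GPR124 siRNA replicates 1 to 3, the arrays of slide 3. Every other array had 1 to 4. What set slide 3 apart was not tested. Tested were 32346 probes that passed the background flag on at least 3 arrays in one channel, all 161 members among them. One fit with limma 3.58.1 (R 4.3.3) used all 12 arrays and a coefficient per group, with Benjamini-Hochberg adjustment over all probes and a threshold of 0.05. The fit was tested on simulated data for F2RL2 against LGR4 siRNA (31663 probes), where 96% of probes changed by 1 and 68% of those changed by 0.5 were recovered. Among unchanged probes, 7 were called. The simulated arrays varied independently and without a slide effect, so these figures do not give the error rate in the real design.

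Members, lists and rules were chosen with earlier results of these data known. The rule for naming took the 2 members with the largest drop shared by all siRNAs and the 2 with the smallest F test adjusted p. Replicate numbers come from the titles. Same-numbered LGR4 and GPR124 arrays deviated together from their group means (correlations 0.23 to 0.55), which the other targeting pairs did not. Some arrays with unlike numbers did so as much: F2RL2 replicate 2 with GPR124 replicate 1 (0.62) and with LGR4 replicate 1 (0.59). These correlations therefore do not establish that the numbers pair the arrays. Alternatives were other background correction, centring, channel, filter, slide and replicate block, and each array left out.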

Additional observations from a re-analysis of the deposited data

How the results depend on the processing

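Leaving out each of the 12 arrays in turn gave 45 to 61 members called between F2RL2 and LGR4 siRNA (58 with all arrays), 42 to 56 between F2RL2 and GPR124 siRNA (50), 64 to 74 between LGR4 and GPR124 siRNA (73) and 77 to 88 by the F test (84). Between 132 and 184 probes met the rule for members, and the shares of the control ratio kept ran from 17.1% to 18.9% (F2RL2), 29.4% to 35.1% (LGR4) and 3.70% to 6.80% (GPR124). A filter that required Cy3 well above background on all 12 arrays left 58 members and gave 38, 24, 35 and 44 calls in these 4 comparisons, where 19.3%, 51.8%, 48.2% and 57.1% of all probes in that fit were called. A slide block gave 35 calls for F2RL2 against LGR4 siRNA and 28 for F2RL2 against GPR124 siRNA, and slide 2 alone gave 15; the cause was not tested. With Cy3 alone for the siRNA differences 264 probes met the rule, with thresholds of 1.5 there were 75, and with detection on all 12 arrays 58. The processed signals raised the share kept to 29.7% with F2RL2 and 8.81% with GPR124 siRNA. They also moved the median of all probes to 0.11, -0.25 and -0.37 for F2RL2 against LGR4, F2RL2 against GPR124 and LGR4 against GPR124 siRNA. With a replicate block the 4 counts were 56, 50, 73 and 82, and with LGR4 and GPR124 arrays alone the block gave 81. Whether the replicate numbers pair the arrays was not established for any comparison. The differences of AGPOA3-24173 and AGPOA3-28783 kept direction and call in all settings run. Dim members limit what can be ordered: in 36, 23 and 28 members neither of the groups compared had an array well above background. Of these, 1, 3 and 3 were nevertheless among the 58, 50 and 73 members called.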

Other observations

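Spots of the members were spread over the array, with 34, 39, 38 and 50 of 161 in 4 equal bands of rows from the first row on. The last band held 31.1% of the members and 24.8% of all probes. Loosening the thresholds of the rule to 0.8 raised the number of probes that met it from 161 to 221, and normexp with loess in place of the processed signals gave 112, of which 90 were members.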
